A study of Homo sapiens with 4 samples.

Results

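The genes described here are 9 members of the ionotropic glutamate receptor family: GRIA1, GRIA2, GRIA4, GRIK1, GRIK2, GRIK4, GRID1, GRIN2A and GRIN2B, of 19974 protein-coding genes placed on hg38. They were followed in cells of the established human myeloma line OPM-2 after 72 h with 1 µM ATRA (all-trans retinoic acid), with 1 µM POM (pomalidomide, an immunomodulatory drug that binds cereblon), with 1 µM ATRA and 1 µM POM together (ATRA+POM), or with the vehicle DMSO. Each treatment gave 1 ATAC-seq library, an assay in which Tn5 transposase cuts and tags open chromatin, so no difference below has been checked against replicates and none carries a p-value. A deposited peak was given to the gene whose body was nearest to its summit, up to 100 kb away. By that rule the 9 genes hold 104 of 76636 peaks in ATRA, 119 of 69162 in POM, 147 of 85434 in ATRA+POM and 95 of 76402 in DMSO. Merged across libraries these peaks form 198 of 122632 regions, the farthest with its summit 97.8 kb from a member's body, while the nearest region beyond the limit lies at 102 kb. The genes were chosen by their peak counts in these same libraries, which had been seen to differ with POM. Peak counts, positions, pileups and ranks are therefore a description and support no test.

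Ionotropic glutamate receptors are ligand-gated cation channels, each built of 4 subunits, that carry fast excitatory transmission in the brain. GRIA genes encode AMPA receptor subunits, GRIK genes kainate receptor subunits, GRIN genes NMDA receptor subunits, and GRID1 a delta subunit that acts as a synaptic organizer bound by cerebellin. Plasma cells are not a classical site of these receptors, and an open region near such a gene is no measure of its transcription. All 9 genes are long, from 146 kb for GRIA2 to 767 kb for GRID1, so the comparison set was the other 3342 protein-coding genes of at least 100 kb. That set is not matched for length: its median is 175 kb, against 430 kb for the 9 genes.

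The promoters of 4 members are shown first because they set the starts of these genes against the distal regions that follow. They are RefSeq sequences on GRCh38.p14, plus strand, from 250 bases before to 50 bases after a listed start, with CpG dinucleotides in capitals. GRIK2 has a peak over this window in all 4 libraries, GRIK4 in DMSO alone, GRIA4 in ATRA and in ATRA+POM, and GRIA2 in none.
GRIK2, chr6:101393458-101393757: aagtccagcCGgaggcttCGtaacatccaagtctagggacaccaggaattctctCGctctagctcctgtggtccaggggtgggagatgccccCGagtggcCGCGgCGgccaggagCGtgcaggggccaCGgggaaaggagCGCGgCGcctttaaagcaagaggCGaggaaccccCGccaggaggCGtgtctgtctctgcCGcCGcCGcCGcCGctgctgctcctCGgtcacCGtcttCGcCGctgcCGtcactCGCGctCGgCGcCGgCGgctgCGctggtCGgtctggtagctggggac
GRIK4, chr11:120511498-120511797: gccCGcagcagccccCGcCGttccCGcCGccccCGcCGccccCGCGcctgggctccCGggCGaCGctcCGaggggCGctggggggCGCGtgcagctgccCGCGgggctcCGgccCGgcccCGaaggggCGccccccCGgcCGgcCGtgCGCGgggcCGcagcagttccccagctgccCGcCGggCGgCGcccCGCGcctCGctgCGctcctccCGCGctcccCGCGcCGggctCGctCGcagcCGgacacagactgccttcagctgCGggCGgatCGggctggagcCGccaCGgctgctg
GRIA4, chr11:105609744-105610043: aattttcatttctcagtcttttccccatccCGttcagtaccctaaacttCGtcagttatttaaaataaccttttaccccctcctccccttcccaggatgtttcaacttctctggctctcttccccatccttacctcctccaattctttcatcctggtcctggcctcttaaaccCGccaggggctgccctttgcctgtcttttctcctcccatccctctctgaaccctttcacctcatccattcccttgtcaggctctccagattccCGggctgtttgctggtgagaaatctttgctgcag
GRIA2, chr4:157220369-157220668: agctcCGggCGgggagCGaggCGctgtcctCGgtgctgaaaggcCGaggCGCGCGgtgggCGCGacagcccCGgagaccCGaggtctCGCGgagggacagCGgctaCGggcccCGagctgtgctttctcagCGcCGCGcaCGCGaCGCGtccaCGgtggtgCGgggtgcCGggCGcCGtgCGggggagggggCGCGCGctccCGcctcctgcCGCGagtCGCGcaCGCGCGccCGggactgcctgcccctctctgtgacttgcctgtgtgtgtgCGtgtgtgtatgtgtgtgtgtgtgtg
The GRIK2 window holds 33 CpG at 69.3% GC and the GRIK4 window 49 CpG at 84.3% GC. The GRIA4 window holds 4 CpG at 49.7% GC. The GRIA2 window has 44 CpG at 74.3% GC and no peak. Each of these 4 genes has further listed starts that are not printed, so contrasts between the windows depend on the ones shown. A GRIA4 window with 26 CpG had no peak in any library, and neither had the GRIA2 windows with 7 and 13 CpG. Over all 22130 listed promoters the medians are 21 CpG and 62.3% GC. A peak lay over 53.3% of them in ATRA, 50.2% in POM, 51.9% in ATRA+POM and 54.1% in DMSO. Of the 7 members with a listed promoter, 3 had such a peak in ATRA, 1 in POM, 2 in ATRA+POM and 3 in DMSO. The retinoid half-site AGGTCA, searched on both strands, occurs in 11.9% of all listed promoters and in 0 of the 16 listed for these genes. GGGCGG, the GC box, searched in the same way, occurs in 56.3% of all and has 4 copies in the GRIK4 window.

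With peaks of any width counted, the 9 genes held more in the libraries with POM than in those without. Most of their added peaks were weak, and without peaks under 300 bp the POM library held fewer than DMSO (71 against 84). Their peaks made up 0.136% of the list in ATRA (exact 95% binomial interval 0.111 to 0.164), 0.172% in POM (0.143 to 0.206), 0.172% in ATRA+POM (0.145 to 0.202) and 0.124% in DMSO (0.101 to 0.152). These intervals, like those of pileups below, cover counting error only. Both POM libraries had more peaks than both libraries without POM at 6 of the 9 genes, namely GRIA2, GRIA4, GRIK1, GRIK2, GRID1 and GRIN2B, and fewer at 1, GRIK4. Among the other long genes, 19.6% had more and 21.7% had fewer. Those genes are shorter and held a median of 6 to 7 peaks per list, against 9 to 13 at the 9 genes. Assigned peaks per Mb of gene body were 25.7 in ATRA, 29.5 in POM, 36.4 in ATRA+POM and 23.5 in DMSO. At the other long genes they were 30.9, 28.3, 35.3 and 30.7. By that measure the 9 genes were near the long genes with POM and below them without it. GRIA1 and GRIN2A had overlapping counts.

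**Figure D1:**
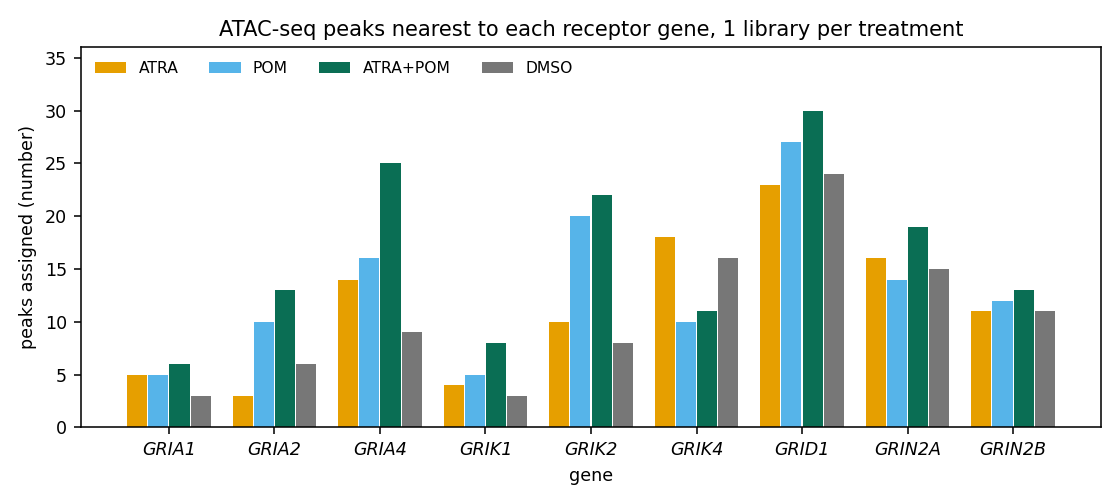
Number of peaks assigned to each of the 9 genes (x axis) in the ATRA, POM, ATRA+POM and DMSO libraries (bars, 1 library each, y axis from 0). GRIK2 shows 20 peaks in POM and 22 in ATRA+POM, against 10 in ATRA and 8 in DMSO, while GRIK4 shows 10 and 11, against 18 and 16.

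Peaks called gained were those of one list that no peak of the other overlapped by 1 bp or more. In POM, 57 of 119 peaks (47.9%, interval 38.7 to 57.2) were gained over DMSO, where 27.2% of all POM peaks and 29.2% of those at long genes were. In ATRA+POM, 72 of 147 peaks (49.0%, interval 40.7 to 57.3) were gained over DMSO, beside 32.7% of all peaks and 34.2% at long genes. Set against ATRA alone, 65 of the 147 (44.2%) were gained, beside 33.3% of all peaks. Against POM alone, 50 of the 147 (34.0%) were gained, close to the 35% of all peaks. ATRA alone gained 26 of 104 peaks over DMSO (25.0%, interval 17.0 to 34.4), beside 19.5% of all ATRA peaks.

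Losses were near or below the share over all peaks. POM lacked 33 of the 95 DMSO peaks (34.7%, against 36.6% of all DMSO peaks), and ATRA+POM lacked 20 (21.1%, against 25.8%). ATRA+POM lacked 22 of the 104 ATRA peaks (21.2%, against 26.5%) and 22 of the 119 POM peaks (18.5%, against 17.7%). ATRA lacked 17 of the 95 DMSO peaks (17.9%, against 19.5%).

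The POM library was the shallowest, and its peaks were the narrowest. Its estimated depth was 33.6% of that of DMSO, against 94.1% for ATRA and 62.7% for ATRA+POM, and 48 of its 119 peaks at these genes (40.3%) were narrower than 300 bp, as were 38.7% of all POM peaks. With narrower peaks left out of every list, the genes held 88 peaks in ATRA, 71 in POM, 133 in ATRA+POM and 84 in DMSO. POM was then the lowest and ATRA+POM still the highest. Under that choice POM gained 26 of 71 peaks (36.6%, beside 16% of all) and lacked 39 of 84 DMSO peaks (46.4%, beside 48.5% of all). With every list cut to the length of the shortest, ATRA+POM gained 47 of 114 over DMSO (41.2%, beside 25.2% of all). The part of depth in the remaining differences was not tested.

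**Figure D2:**
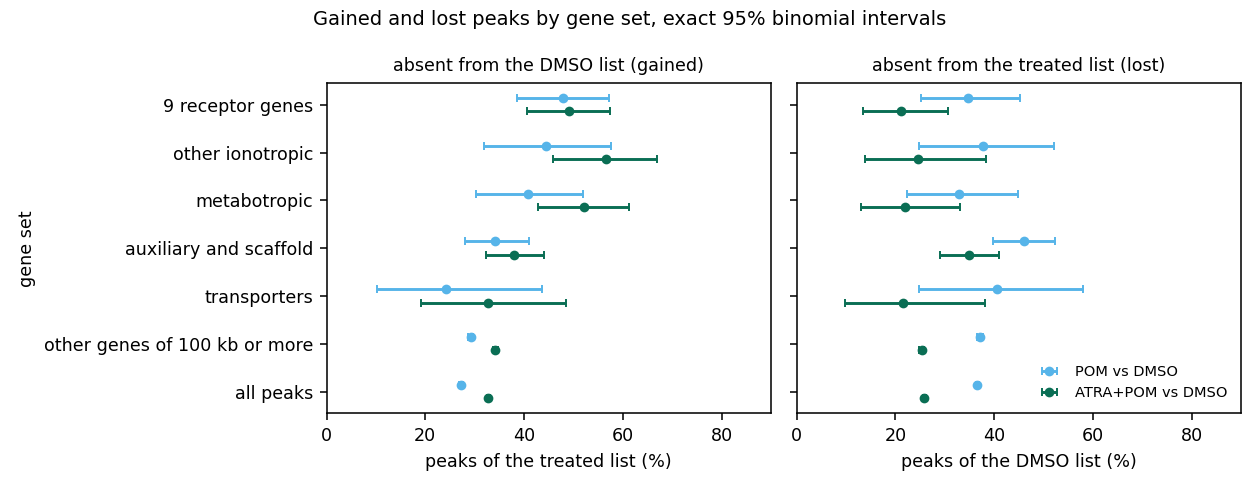
Share of peaks gained (left, percent of the POM or ATRA+POM list) and lost (right, percent of the DMSO list) against DMSO, by gene set from top to bottom; points are shares and bars exact 95% binomial intervals. The 9 receptor genes sit at 47.9% and 49.0% gained, with other ionotropic and metabotropic receptor genes at 40.7% to 56.5%, and all peaks at 27.2% and 32.7%.

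Regions were then sorted by the exact set of libraries that called them. POM and ATRA+POM alone shared 28 of the 198 (14.1%, interval 9.61 to 19.8), where 6.05% of all 122632 regions had that pattern. The reverse pattern, ATRA and DMSO alone, held 12 (6.06%, beside 6.31% of all). All 4 libraries called 58 (29.3%, beside 35%), ATRA+POM alone called 29 (14.6%, beside 13%) and POM alone called 21 (10.6%, beside 6.94%). Of those 21, 17 were narrower than 300 bp and their median summit pileup was 5. With peaks under 300 bp left out, 16 regions remained in the pattern of both POM libraries alone. The share over all regions under that choice is not given here.

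Of those 28 regions, 19 were inside gene bodies (67.9%, beside 72.2% of all 198), 5 upstream and 4 downstream. None lay within 1 kb of the start of a gene body, the nearest being 1.65 kb inside GRIK1. Few regions of these genes did: 3 of all 198 lay that near, all 3 among the 58 called in every library. Another of the 58, at GRIN2A, had its summit 1.21 kb inside the body but 364 bp from a listed start. Over the whole genome, 1.69% of regions with that pattern had a summit within 1 kb of either gene boundary, against 22.2% of those called in all 4 libraries. Pileup here means the number of fragments piled up at the summit, recovered from the deposited fold and −log10 p-value. It ranged from 4 to 32 in POM (median 10.5) and from 7 to 65 in ATRA+POM (median 19.5). On the scale of the DMSO library the ATRA+POM values ran from 9.9 to 91.9 (median 27.6), and 23 of the 28 reached 16 or more, while the smallest pileup of any DMSO peak was 8.

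**Figure D3:**
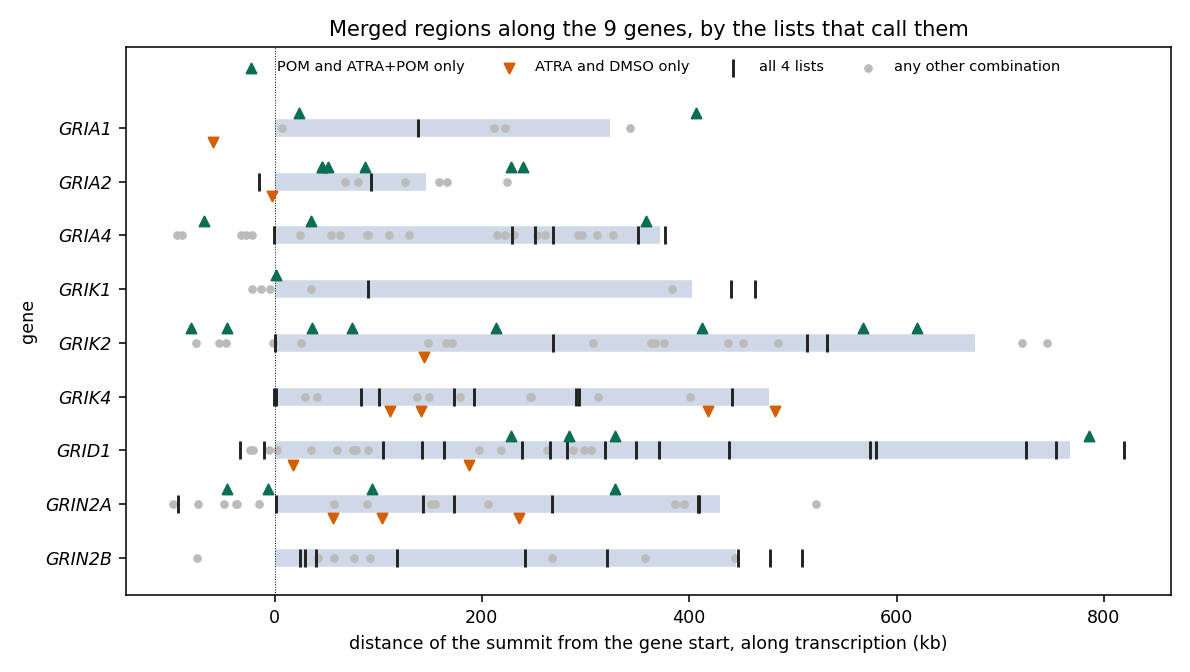
Summit position of the 198 merged regions along each gene (x axis, kb from the gene start in the direction of transcription; pale bars are gene bodies), marked by the libraries that call them. Regions of POM and ATRA+POM alone (28, upward triangles) number 8 at GRIK2 and 6 at GRIA2, and those of ATRA and DMSO alone (12, downward triangles) number 4 at GRIK4.

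By median rank, peaks of the 9 genes stood lower in their lists than those of other long genes in 3 of the 4 libraries. The median peak of the 9 genes stood at the top 68.5% of its list by −log10 q-value in ATRA, 63.0% in POM, 52.0% in ATRA+POM and 60.7% in DMSO, where a higher percentage is a weaker rank. At other long genes the median stood between 51.7% and 53.1%, so the ATRA+POM library was the one without a gap in the median. Among the 20000 strongest peaks of each list were 17 of the genes' peaks in ATRA, 18 in POM, 19 in ATRA+POM and 14 in DMSO. That is 12.9% to 16.3% of their peaks, against 23.4% to 28.9% of all peaks and 20.3% to 25.4% at other long genes. By this share ATRA+POM had a gap as well, at 12.9% against 20.3% at other long genes. A single strong peak was gained, the GRIK1 region described below. It counted as 1 of the 18 strong POM peaks over DMSO, where 2.26% of all strong POM peaks were gained. It also counted as 1 of the 19 strong ATRA+POM peaks, both over DMSO (2.52% of all) and over ATRA (3.38% of all). ATRA over DMSO and ATRA+POM over POM had 0 strong gains, beside 0.045% and 0.35% of all strong peaks. No strong peak was lost in any of the 5 comparisons. Of all strong DMSO peaks, 0.075% were lost in ATRA, 1.7% in POM and 0.865% in ATRA+POM, and ATRA+POM lacked 0.815% of strong ATRA peaks and 0.645% of strong POM peaks. With 10000 strong peaks the gained number was 0 in POM over DMSO, ATRA+POM over DMSO and ATRA+POM over ATRA, and with 30000 it was 3, 6 and 8 in those comparisons. The shares over all strong peaks at those cuts are not given here.

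For regions called in both libraries of a pair, pileups were scaled by the median ratio over the 42930 regions that every library called. The median log2 ratio was 0.54 for POM over DMSO (62 regions, order-statistic interval 0.34 to 0.69) and 0.50 for ATRA+POM over DMSO (75 regions, 0.36 to 0.86). These 2 intervals treat regions of the same genes and libraries as independent. They describe the spread over regions and not the variation between replicates, which 1 library per treatment cannot give. Long genes gave 0.19 and 0.20, and all regions 0.04 and 0.05. ATRA+POM over ATRA gave 0.39 (82 regions), ATRA+POM over POM 0.11 (97 regions) and ATRA over DMSO 0.07 (79 regions). At least 2-fold higher scaled pileup was seen at 13 regions in POM over DMSO (21.0%, beside 13% of all regions) and at 22 in ATRA+POM over DMSO (29.3%, beside 13.8%). ATRA+POM over ATRA had 23 such regions (28.0%, beside 11.8%). ATRA over DMSO had 1 (1.27%, beside 1.11%) and ATRA+POM over POM had 4 (4.12%, beside 3.01%). At least 2-fold lower were 0 regions in POM over DMSO (beside 8.92% of all), 1 in ATRA+POM over DMSO (beside 9.03%) and 2 in ATRA+POM over ATRA (beside 8.47%). ATRA over DMSO had 2 lower ones (beside 0.775%) and ATRA+POM over POM had 1 (beside 1.62%). Only regions called in both lists enter these ratios, and the smallest POM pileup of 4 equals 10.1 on the DMSO scale, so weak DMSO regions could hardly appear as 2-fold lower in POM. Among the 31 regions with a DMSO pileup of at least 30, a limit chosen after the data were seen, POM called 29. It did not call 2 (6.45%, beside 14% of all such regions). The median log2 ratio of the 29 was 0.32, beside −0.03 at long genes and −0.20 over all regions. Of the 29, 2 were at least 2-fold higher (6.9%, beside 5.56% of all) and 0 were lower (beside 12.7% of all). ATRA+POM called 30 of the 31, with a median of 0.22, beside −0.09 at long genes and −0.25 over all regions. It did not call 1 (3.23%, beside 8.02% of all). Of the 30, 3 were at least 2-fold higher (10%, beside 5.18% of all) and 1 was lower (3.33%, beside 14% of all). A scale taken from the background of each list in place of shared regions adds 0.23 to every POM over DMSO value and 0.17 to every ATRA+POM over DMSO value. It turns 4 regions in each comparison positive and none negative.

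**Figure D4:**
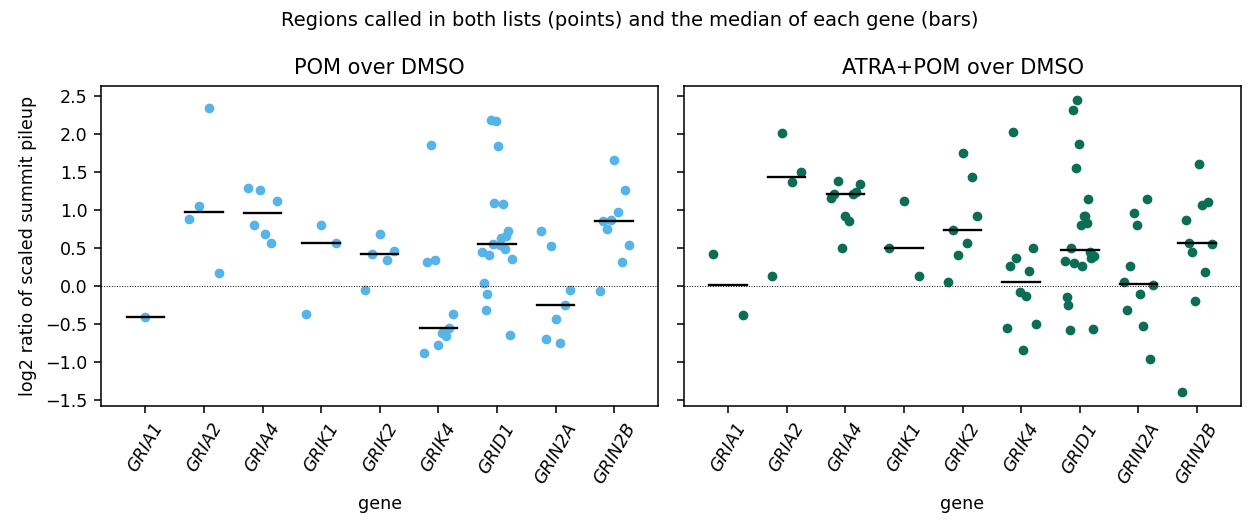
Scaled log2 pileup ratio over DMSO (y axis) of each region called in both libraries (points, placed within a gene by position), for POM (left) and ATRA+POM (right); bars are gene medians and the dotted line is equal scaled pileup. GRIA4 lies above 0 at all 6 and all 9 of its regions, while GRIK4 has a median of −0.56 in POM and 0.05 in ATRA+POM.

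Among AMPA receptor genes, GRIA2 (chr4:157220120-157366075), whose subunit limits calcium entry through the channel, had 3 peaks in ATRA, 10 in POM, 13 in ATRA+POM and 6 in DMSO. Of its regions, 6 were called in both POM libraries alone. They include 3 neighbours with no other region between them, 45.4 to 51.3 kb inside the gene and spanning 6.4 kb (chr4:157265355-157271757). Their pileups were 11, 14 and 6 in POM and 22, 25 and 22 in ATRA+POM, and neither ATRA nor DMSO had a peak there. The gene's region with the highest −log10 q-value, chr4:157300476-157301067, 80.8 kb inside, had a pileup of 37 in ATRA+POM and 13 in DMSO (intervals 26.1 to 51 and 6.92 to 22.2) and no peak in ATRA or POM. Its scaled log2 ratio was 2.01. All 4 regions that ATRA+POM shared with DMSO were above 0, with a median of 1.43.

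GRIA4 (chr11:105609994-105982090), a fast-gating AMPA subunit, had 14 peaks in ATRA, 16 in POM, 25 in ATRA+POM and 9 in DMSO, the lowest being DMSO. The region with its summit 549 bp before the start, chr11:105609149-105609890, which reaches into the window printed above, had pileups of 22 in ATRA, 27 in POM, 44 in ATRA+POM and 28 in DMSO. Scaled to DMSO this was a log2 ratio of −0.15 in ATRA, 1.28 in POM and 1.15 in ATRA+POM. The best-ranked region, chr11:105838737-105839315, 229 kb inside the gene, had 61 in ATRA, 27 in POM, 72 in ATRA+POM and 39 in DMSO. On the DMSO scale these are 69.9, 68.2 and 102 beside 39, so all 3 treated libraries were above the vehicle. Another, chr11:105644783-105645404, was called in both POM libraries alone, with pileups of 16 in POM (interval 9.15 to 26) and 36 in ATRA+POM (25.2 to 49.8). All regions shared with DMSO were above 0: 6 in POM with a median of 0.96, and 9 in ATRA+POM with a median of 1.21.

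GRIA1 (chr5:153489615-153813869), the AMPA subunit tied to activity-dependent insertion at synapses, had few peaks: 5 in ATRA, 5 in POM, 6 in ATRA+POM and 3 in DMSO. Its best-ranked region, chr5:153626384-153627695, lies 138 kb inside, with 46 in ATRA, 11 in POM, 35 in ATRA+POM and 37 in DMSO. The scaled ratios to DMSO were 0.51, −0.41 and 0.42 on the log2 scale, POM being the lowest. An upstream region, chr5:153429328-153430450, had 28 in ATRA and 31 in DMSO and no peak in either POM library. Regions in both POM libraries alone numbered 2, at 24 kb inside and beyond the gene's end.

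Among kainate receptor genes, GRIK1 (chr21:29536933-29939996, minus strand) held the one strong gained peak, at chr21:29938155-29938683, 1.65 kb inside the 5′ end of the gene body. Its pileup was 30 in POM (interval 20.2 to 42.8) and 65 in ATRA+POM (50.2 to 82.8), and ATRA and DMSO had no peak there. It ranked 14536 in POM and 10550 in ATRA+POM, and its scaled pileups of 75.8 and 91.9 stand beside a smallest pileup of 8 among DMSO peaks. The gene had 4 peaks in ATRA, 5 in POM, 8 in ATRA+POM and 3 in DMSO.

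GRIK2 (chr6:101393708-102070083), the main subunit of many native kainate receptors, had a start region of similar scaled pileup in all 4 libraries. The regions called in its body differed more. Over the start, with its summit 29 bp away, the region chr6:101393333-101394223 was called in all 4 libraries with pileups of 77 in ATRA, 29 in POM, 56 in ATRA+POM and 76 in DMSO. On the DMSO scale these are 88.2, 73.3 and 79.2 beside 76.0. The counting intervals of the pileups in ATRA (60.8 to 96.2) and DMSO (59.9 to 95.1) overlap, and no scaled interval is given for the POM libraries. By rank this region ran from the top 17% of the list in ATRA to the top 37.6% in POM. A further peak, chr6:101392065-101392248, 1.53 kb before the start, was called in POM alone with a pileup of 17. Away from the start, 8 regions were called in both POM libraries alone, 6 of them inside the gene and 2 upstream. The highest of the 8, chr6:101606952-101607709, 214 kb inside, had 13 in POM (interval 6.92 to 22.2) and 41 in ATRA+POM (29.4 to 55.6). The others ran from 5 to 13 in POM and from 13 to 31 in ATRA+POM. Total peaks were 10 in ATRA, 20 in POM, 22 in ATRA+POM and 8 in DMSO, the POM libraries being the high ones. One region went the other way, chr6:101537584-101538272, with 17 in ATRA and 19 in DMSO and no POM peak. All 7 regions that ATRA+POM shared with DMSO were above 0, with a median of 0.73, the start lowest at 0.06.

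GRIK4 (chr11:120511748-120988906), a high-affinity kainate subunit that needs a partner to form a channel, was the one gene with fewer peaks in both POM libraries. It had 18 peaks in ATRA, 10 in POM, 11 in ATRA+POM and 16 in DMSO, and the POM libraries were below the others without overlap. Its start region, chr11:120510839-120511952, summit 471 bp upstream, had pileups of 185 in ATRA (interval 159 to 214), 51 in POM (38 to 67.1), 114 in ATRA+POM (94 to 137) and 237 in DMSO (208 to 269). The scaled log2 ratio to DMSO was −0.16 in ATRA, −0.88 in POM and −0.56 in ATRA+POM. In DMSO this peak reached over the printed CpG-rich window, and in the other libraries it ended short of it.

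Within GRIK4, 4 regions were called in ATRA and DMSO alone and 0 in both POM libraries alone. The region chr11:120929442-120930106 had 36 in ATRA and 25 in DMSO, and chr11:120622320-120622799 had 24 in ATRA and 16 in DMSO. The median scaled ratio to DMSO was −0.56 over 9 regions in POM and 0.05 over 10 in ATRA+POM. Above 0 in POM over DMSO were 3 of the 9 regions, and in ATRA+POM over DMSO 5 of the 10. The highest of them, named after its values were seen, is chr11:120594564-120595704, 83.3 kb inside. It had 43 in ATRA, 67 in POM, 135 in ATRA+POM and 47 in DMSO. Its scaled log2 ratio to DMSO was 0.07 in ATRA, 1.85 in POM and 2.02 in ATRA+POM, so open sites of this one gene differed from DMSO in both directions.

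GRID1 (chr10:85599552-86366795, minus strand), the delta subunit gene and the longest of the 9, had 23 peaks in ATRA, 27 in POM, 30 in ATRA+POM and 24 in DMSO. It also held the best-ranked region of the whole set in every library, chr10:86399738-86400974, 33.4 kb upstream. Its pileup was 228 in ATRA, 130 in POM, 237 in ATRA+POM and 256 in DMSO, at rank 2863 in ATRA, 1001 in POM, 961 in ATRA+POM and 2914 in DMSO. Scaled ratios to DMSO were 0.03 in ATRA, 0.36 in POM and 0.39 in ATRA+POM on the log2 scale.

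Regions called in both POM libraries alone numbered 4 at GRID1, 3 inside the body at 29.7% to 42.7% of its length and 1 downstream. The highest, chr10:86081962-86083200, had 32 in POM (interval 21.9 to 45.2) and 55 in ATRA+POM (41.4 to 71.6), and chr10:86038633-86039351 had 13 and 41. Between them lies chr10:86047005-86048695, named after its values were seen, with 13 in ATRA, 32 in POM, 69 in ATRA+POM and 18 in DMSO. Its scaled log2 ratio to DMSO was −0.27 in ATRA, 2.17 in POM and 2.44 in ATRA+POM, so the high libraries were again those with POM. The reverse pattern was seen at chr10:86178166-86178971, with 20 in ATRA and 17 in DMSO and no POM peak. Of the regions shared with DMSO, 15 of 18 were above 0 in POM (median 0.55) and 16 of 20 in ATRA+POM (median 0.47).

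Of the NMDA receptor genes, GRIN2B (chr12:13537337-13982134, minus strand), the subunit prominent early in brain development, differed little in number: 11 peaks in ATRA, 12 in POM, 13 in ATRA+POM and 11 in DMSO. No region of GRIN2B was called in both POM libraries alone or in ATRA and DMSO alone. Its pileups differed all the same, with 8 of 9 shared regions above 0 in POM over DMSO (median 0.85) and 8 of 10 in ATRA+POM over DMSO (median 0.56). The best-ranked region, chr12:13957092-13958405, 24.2 kb inside, had 53 in ATRA, 56 in POM, 101 in ATRA+POM and 97 in DMSO. On the log2 scale its scaled ratios to DMSO were −0.68, 0.54 and 0.56, ATRA being the low one. None of the 3 listed promoters of GRIN2B had a peak in any library, although they hold 22, 17 and 36 CpG.

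GRIN2A (chr16:9753404-10182908, minus strand), the subunit that is prominent in the adult brain, had 16 peaks in ATRA, 14 in POM, 19 in ATRA+POM and 15 in DMSO. The region chr16:10181379-10182097, which overlaps the listed promoter in ATRA and DMSO, had pileups of 41 in ATRA, 17 in POM, 25 in ATRA+POM and 51 in DMSO, with scaled log2 ratios to DMSO of −0.12, −0.25 and −0.53. Its best-ranked region, chr16:9913920-9914863, 268 kb inside, had 147 in ATRA, 84 in POM, 125 in ATRA+POM and 147 in DMSO. There the scaled ratios were 0.20, 0.53 and 0.27. The gene held 4 regions of both POM libraries alone and 3 of ATRA and DMSO alone. Its median scaled ratio to DMSO was −0.25 over 7 regions in POM and 0.03 over 10 in ATRA+POM.

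Other genes of glutamate signalling were counted from fixed lists, which mix long and short genes. Of the 16623 genes under 100 kb, 5.47% had more peaks in both POM libraries than in both others and 17% had fewer, beside the 19.6% and 21.7% of long genes given above. Among the other 9 ionotropic receptor genes, 2 had more peaks in both POM libraries than in both others and 4 had fewer. Of those with more, GRIN3A, a modulatory NMDA subunit, had 5 peaks in ATRA, 10 in POM, 11 in ATRA+POM and 4 in DMSO. The 4 with fewer were GRIK3, GRIK5, GRIN1 and GRIN3B. Among 8 metabotropic receptors, which are coupled to G proteins, 5 had more, among them GRM3 and GRM7, and 1 had fewer (GRM4). Among 27 auxiliary and scaffold genes 3 had more (DLG2, GRIP1 and NETO1) and 9 fewer, and among 8 transporters 1 had more (SLC17A6) and 1 fewer (SLC1A3).

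The pattern of both POM libraries alone covered 14 of 125 regions (11.2%) at the other ionotropic genes, 13 of 162 (8.02%) at metabotropic, 28 of 435 (6.44%) at auxiliary and scaffold genes and 1 of 62 at transporters. Shares above the 6.05% of all regions were thus also seen at other glutamate receptor genes, and the differences between lists were not tested. Median scaled log2 ratios for ATRA+POM over DMSO were 0.50 at the 9 genes, 0.59 at the other ionotropic genes, 0.50 at metabotropic genes, 0.18 at auxiliary and scaffold genes and 0.37 at transporters.

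As a check of the cells, plasma cell marker genes had a peak within 1 kb of a gene boundary at 7 of 8 genes in ATRA, 8 in POM, 8 in ATRA+POM and 7 in DMSO, the exception being SLAMF7. Of 5 neuron markers, SYN1 and SNAP25 had one in every library and RBFOX3, TUBB3 and NEFL in none. Glia markers had none apart from AQP4 in DMSO. No monocyte marker of 3 had one. Of the T cell markers, CD3E had one in every library and CD2 in POM and ATRA+POM alone.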

How the data were processed

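ATAC-seq libraries of OPM-2 cells, 4 in all and 1 per treatment label, were analysed from the deposited peak lists, on hg38 per the submitters' processing notes. Neither the aligner, nor the peak caller, nor a shift of reads is given in the sources used here. Scores, as deposited, equal the −log10 q-value times 10 without its decimals, and the deposited fold is a ratio of summit pileup to background after adding 1 to both, judged from the values. The authors' −log10 values, of a p-value and of a q-value, are those of the summit. Peaks were called per library, and the largest q-value in the lists is 0.0497.

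Only chromosomes 1 to 22 and X were kept, leaving out 5 peaks. The gene bodies are those of RefSeq on GRCh38.p14. Strand came from its promoter table for 7 members, and for GRIK1 and GRID1 was taken as opposite to their named antisense genes. Whole-number pileups were recovered by solving fold and −log10 p-value for a Poisson tail, an assumed rule that gave back 100% of the −log10 p-values within 0.01. The median pileup per list was 27 in ATRA, 15 in POM, 22 in ATRA+POM and 30 in DMSO, and the pileup ratios to DMSO used as scales were 0.873 in ATRA, 0.396 in POM and 0.707 in ATRA+POM. Depth is an estimate from the recovered background, since read totals were not used here. Overlaps needed 1 bp. Binomial intervals are Clopper-Pearson and pileup intervals exact Poisson, at 95%. Python 3.11.15, numpy 2.4.6, pandas 2.3.3, scipy 1.17.1 and bedtools 2.31.1 were used, and the calculations were tested on simulated data.

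The 9 members, the lists of other genes and the comparisons were chosen with earlier results of these data known. Named regions are every strong gained or lost one and the region with the highest −log10 q-value of each gene. Added to these are the 5 with the highest pileup in each of 2 patterns, both POM libraries alone and ATRA and DMSO alone. Others that carry coordinates were added after their values were seen. With 1 library per group no test between treatments could be made. Alternatives changed the gene assignment, threshold, list length, overlap, width, number of strong peaks, scale and members, and a minimum pileup was added after seeing the data. Values of some genes on the lists are not reported here.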

Additional observations from a re-analysis of the deposited data

Results flagged for a closer look

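Changes in peak number that went in opposite directions in the absence and presence of the other agent were seen at 3 genes. At GRIA2, ATRA came with 3 more peaks in the presence of POM (13 in ATRA+POM, 10 in POM) and 3 fewer in its absence (3 in ATRA, 6 in DMSO), a difference of 6 peaks between the 2 changes. At GRID1, ATRA came with 3 more peaks beside POM (30 in ATRA+POM, 27 in POM) and 1 fewer without it (23 in ATRA, 24 in DMSO), a difference of 4. At GRIN2A, POM came with 3 more peaks beside ATRA (19 in ATRA+POM, 16 in ATRA) and 1 fewer without it (14 in POM, 15 in DMSO), a difference of 4. Over all peaks, POM without ATRA also came with fewer (69162 in POM, 76402 in DMSO). Beside ATRA it came with more (85434 in ATRA+POM, 76636 in ATRA), so the turn at GRIN2A has the direction of the whole lists. For ATRA, the whole lists differed little without POM (76636 against 76402) and rose beside it (85434 against 69162). At GRID1 and GRIN2A the fall was of 1 peak only. The share of other long genes with such a turn is not given here, so whether 3 genes are more than usual cannot be told. The differences at the 3 genes rest on 1 library per group and were not tested, and no joint effect of the agents is concluded from them.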

How the results depend on the processing

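Of 155 alternative values, 134 stayed close to the values above and 21 moved by more than the limit set for them (1.5 times for a count). The median log2 ratio of ATRA over DMSO was −0.04 on the scale from the background, against 0.07, and no other of the 5 medians over the 9 genes turned its sign. Medians of single genes and of all regions that lie near 0 turned too, such as all regions in ATRA over DMSO, at −0.08 against 0.02. Leaving out peaks under 300 bp gave 71 POM peaks at the 9 genes, with 26 gained in POM over DMSO (36.6%, beside 16% of all). DMSO then had 84 peaks at these genes, so the order of POM and DMSO turned. The same choice gave 6 POM peaks lost in ATRA+POM (8.45%, beside 6.78% of all) and 16 regions of both POM libraries alone. A −log10 q-value of at least 3 gave 16 peaks gained in ATRA over DMSO and 8 POM peaks lost in ATRA+POM. Lists of equal length gave 17 gained in ATRA over DMSO (19.8%, beside 16.2% of all) and 47 in ATRA+POM over DMSO (41.2%, beside 25.2%). In ATRA+POM over POM they gave 25 (21.9%, beside 23.8% of all). Where no share over all peaks or regions stands beside an alternative count, the count describes the 9 genes only. With 10000 strong peaks, the 1 strong gain became 0 in POM over DMSO, in ATRA+POM over DMSO and in ATRA+POM over ATRA. With 30000, strong gains were 3, 6 and 8 in those comparisons and 2 in ATRA+POM over POM, and strong losses were 1 in POM over DMSO and 2 in ATRA+POM over ATRA. The scale from the background raised the median log2 ratio of POM over DMSO to 0.77 (0.28 over all regions). Keeping regions with a DMSO pileup of at least 30, chosen after seeing the data, lowered the medians to 0.32 in POM over DMSO and 0.22 in ATRA+POM over DMSO. Stricter choices leave fewer peaks, and the cause of these movements was not tested. Other gene assignments, overlaps and the set without GRID1 moved no value past the limit. Summit pileups at the genes had medians of 17 in ATRA, 11 in POM, 20 in ATRA+POM and 19 in DMSO, so a region without a peak in POM may hold fragments below the calling threshold. No paired analysis was possible because each group has 1 library.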
